A study of Tulipa gesneriana with 15 samples.

Results

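A set of 150 genes of the garden tulip (Tulipa gesneriana), out of 76388 listed, fell from flower buds to the open flower and rose again by late senescence. By mean log2 level, each was higher at both these outer stages than at partial blooming, full blooming and early senescence. The members were selected on their FPKM values (fragments scaled by the length of the feature and the size of the library) in these same libraries. To be eligible, a gene needed a mean of 5 FPKM or more at both outer stages and 1 FPKM or more in each bud library, and 16757 genes met these levels. The score was the lower of the bud and late senescence stage means minus the highest stage mean of the 3 stages between, each a mean of log2(FPKM + 1). Of the eligible genes, 4243 scored above 0, and the 150 highest scores were taken. The fall after the bud stage and the return in late senescence therefore follow from the choice and are given as descriptions, without a test.

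RNA was sequenced from whole flowers, all labelled WT, at 5 successive stages with 3 libraries each: buds (stage 1), then partial and full blooming, then early and late senescence (stage 5). The labels name no cultivar, plant, date or pooling, so every p-value refers to differences among these libraries, whose spread may be technical. A tulip flower carries coloured tepals around the stamens and the pistil. Opening is known to be driven by growth movements of the tepals, and in senescence the tepals wilt and drop while sugars and nitrogen are moved out of them. The pistil can live on and develop into a seed capsule. A whole-flower library mixes the RNA of all these organs, so more cells of one organ and more RNA per cell cannot be told apart in any value below. The table pairs no identifier with a gene name or a function, so no role is given for a member, and the tissue label could not be checked against marker genes. Between 35738 and 42158 genes reached 1 FPKM per library; read depth is unknown. Replicate 3 of full blooming differed from the other libraries of its stage, with a mean correlation across tested genes of 0.87 with buds, against 0.80 and 0.79 for full blooming replicates 1 and 2. Bud replicate 2 correlated more with late senescence, at 0.73, against 0.67 and 0.70 for bud replicates 1 and 3. Both libraries bear on the members, and results are given with and without them.

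Scores of the members ran from 1.25 to 4.74 log2 units, with a median of 1.70. There were 39 members at 2 or more and 11 at 3 or more. The threshold fell in a dense part of the ranking. Just inside it, F01.PB19723 scored 1.255 and F01.PB9758 scored 1.252, and just outside it F01.PB12843 and F01.PB4484 both scored 1.250. By stage mean in time order, F01.PB19723 was at 7.43, 1.92, 0.583, 3.55 and 9.55 FPKM. F01.PB12843 was at 90.0, 7.19, 9.63, 0 and 14.8 FPKM, so neighbours in score differed widely in level. The filter of the tests, 1 FPKM or more in 3 or more libraries, was passed by 47326 genes, among them all 150 members.

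The 2 members with the highest scores had nearly the same course. F01.PB23612 was at 218, 222 and 208 FPKM in the 3 bud libraries, at 0.650, 9.23 and 30.7 in those of partial blooming, and at 1.94, 0.210 and 100.2 in those of full blooming. In early senescence it was at 0.240, 0.130 and 0.540 FPKM, and in late senescence at 272, 192 and 211. Its late senescence and bud libraries overlapped, its early senescence libraries all lay under 1 FPKM, and 1 full blooming library stood far above the other 2. F01.PB5293 was at 181, 155 and 179 FPKM in the bud libraries, at 0.400, 9.93 and 30.8 in those of partial blooming, and at 3.10, 0.1 and 96.6 in those of full blooming. It was at 0.220, 0.350 and 0.240 FPKM in early senescence and at 213, 124 and 147 in late senescence. The same full blooming library, replicate 3, and the same 2 partial blooming libraries, replicates 2 and 3, were again the high ones among the middle stages. Over the 15 libraries the log2 values of these 2 members correlated at 0.997, which is a description of 2 courses in shared libraries. Whether they are separate genes or transcripts of 1 gene is not stated in the table.

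Close partners of this kind were also counted over all members, without such a count for other genes. Of the 150 members, 96 had another member at a correlation of 0.95 or more over the 15 libraries, and 32 had one at 0.99 or more. The median over all 11175 pairs of members was 0.79. These genes share libraries and were chosen for 1 shape, so they are not separate observations of it.

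As a group, the members made up 1.35% ± 0.103 (SD, n = 3) of all FPKM in the bud libraries, 0.197% ± 0.114 at partial blooming and 0.244% ± 0.307 at full blooming. Their share was 0.0764% ± 0.0192 at early and 0.707% ± 0.107 at late senescence. The share in late senescence was thus under that in buds, and its spread at full blooming was larger than its mean. The median over members of the stage mean was 26.3, 4.78, 5.73, 0.812 and 24.6 FPKM over the 5 stages in time order. By mean log2 level, early senescence was the lowest of the 3 middle stages in 100 members, partial blooming in 31 and full blooming in 19. Partial blooming was the highest of the 3 in 77 members, full blooming in 51 and early senescence in 22.

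**Figure D1:**
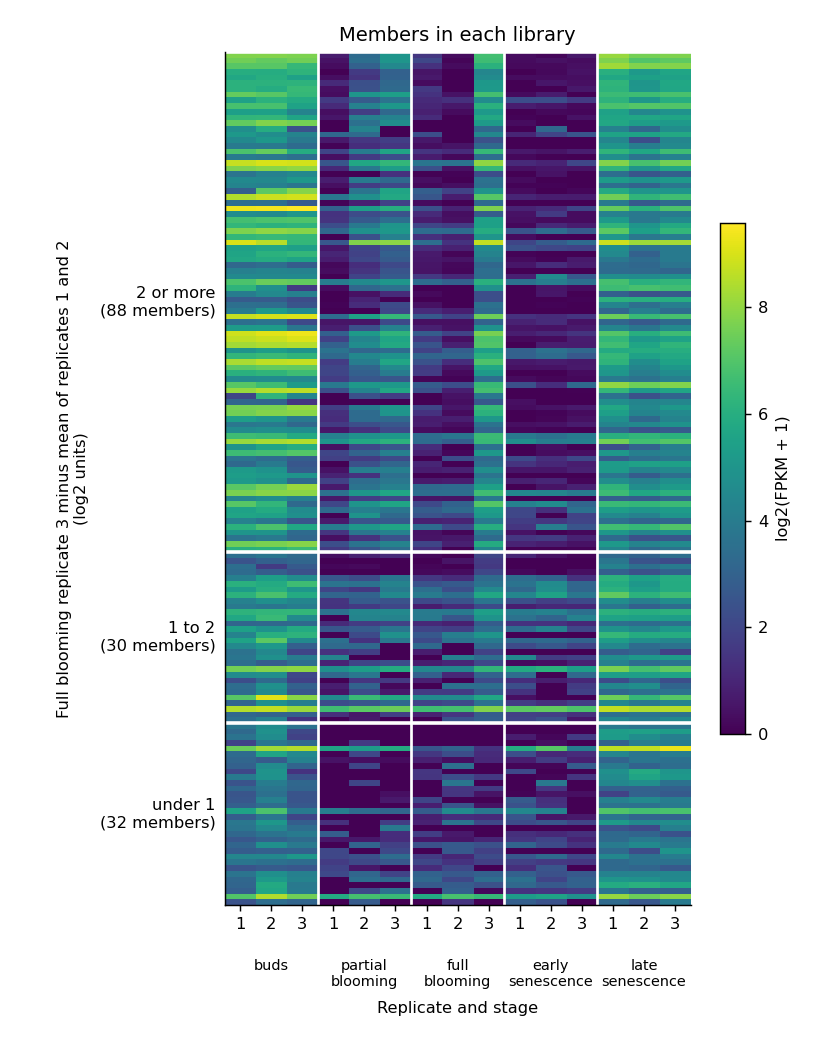
Levels of the 150 members, as log2(FPKM + 1) by colour, with 1 row per member and 1 column per library, grouped by stage. Rows are grouped by how far full blooming replicate 3 lies above the mean of replicates 1 and 2 (88, 30 and 32 members) and ordered by score within a group; in the first group replicate 3 is bright while replicates 1 and 2 are dark.

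The members ranged widely in level. In buds 93 members averaged 20 FPKM or more and 34 averaged 100 or more, and in late senescence these numbers were 85 and 20. The most abundant member in buds, F01.PB14961, was chosen for its level after the values were seen. It was at 645, 684 and 763 FPKM in the bud libraries, at 6.86, 41.5 and 61.1 in those of partial blooming, and at 4.21, 0.890 and 213 in those of full blooming. Its early senescence values lay between 0.950 and 3.01 FPKM, and its late senescence values 160, 68.1 and 118. No late senescence library reached the lowest bud library in this member. F01.PB2374, also chosen after its values were seen, was the second most abundant member in late senescence and never went low. Its stage means in time order were 350 ± 68.2, 136 ± 36.0, 141 ± 66.2, 139 ± 19.4 and 368 ± 40.5 FPKM (SD, n = 3 each). It was among 30 members at 1 FPKM or more in all 15 libraries. At the other end, 1 member, F01.PB1738, is listed at 0 in all 9 middle libraries.

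The 3 libraries of a stage did not agree well for these genes in the open flower. The median over members of the SD between libraries was 1.01 log2 units in partial blooming and 1.67 in full blooming, against 0.17 and 0.29 over all genes that met the levels of the rule. In buds it was 0.41 for the members against 0.23 for those genes, in early senescence 0.27 against 0.15, and in late senescence 0.39 against 0.23. The open stages were thus where the members varied most, and full blooming replicate 3 lay furthest from its stage.

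In full blooming replicate 3 the median member was at 11.9 FPKM, against 1.26 and 0.790 FPKM in replicates 1 and 2. The members held 0.598% of the summed FPKM there, against 0.0644% and 0.0694%. Replicate 3 was the highest library of its stage in 120 members (80.0%), a place it held in 50.8% of the 16757 eligible genes. It exceeded the mean of replicates 1 and 2 by at least 2 log2 units in 88 members (58.7%), against 3.03% of all tested genes. The tested genes include many under the levels of the rule, and this share was not computed over the eligible genes. The median difference was 2.61 log2 units over the members and 0.22 over all tested genes. In 104 members this library was the highest of all 9 middle libraries, and in 44 it was at or above the lowest bud library. It was at or above the lowest late senescence library in 60 members. For these last counts, of 104, 44 and 60 members, no share over other genes was computed.

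Partial blooming showed a smaller split of the same kind. The median member was at 4.13 and 7.85 FPKM in replicates 2 and 3, against 0.825 FPKM in replicate 1. The mean of replicates 2 and 3 exceeded replicate 1 by at least 1 log2 unit in 86 members (57.3%). The share was 4.81% of all tested genes, which again include many under the levels of the rule. In 103 members (68.7%) both replicates 2 and 3 were above replicate 1, against 48.6% of the eligible genes. Early senescence had no such split, with medians of 0.640, 0.575 and 0.590 FPKM in its 3 libraries. Between 82 and 91 members were under 1 FPKM in each of these libraries.

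**Figure D2:**
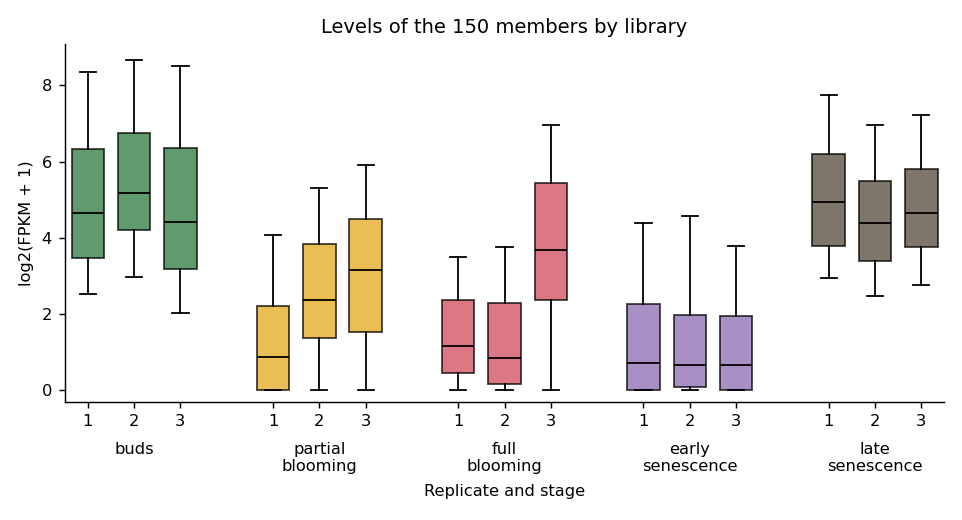
Levels of the 150 members in each library on the log2(FPKM + 1) scale; boxes show the quartiles, the line the median, and whiskers the 5th and 95th percentiles of members. The median in full blooming replicate 3 is 11.9 FPKM, against 1.26 and 0.790 FPKM in replicates 1 and 2, and partial blooming replicate 1 lies under replicates 2 and 3.

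Set against each member's own bud mean, the libraries between formed a wide ladder. The median member was at 1.96%, 11.5% and 16.9% of its bud mean in partial blooming replicates 1, 2 and 3. In full blooming these values were 2.75%, 2.60% and 39.1%, and in early senescence 1.52%, 1.46% and 0.810%. In late senescence they were 92.5%, 68.8% and 84.2%. Over the 9 middle libraries, the members that varied there had a median correlation of 0.85 with the median course of all members, and 85 of them reached 0.8. Of the 16607 other eligible genes, 2155 reached 0.8 with that same course. These correlations rest on 9 libraries, with the members themselves in the median, and describe how far the ladder is shared; 21 members ran against it with values under 0.

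The members could be sorted by full blooming replicate 3 into 3 sets, cut after the values were seen, so that what follows describes them without a test. The largest set, 88 members, exceeded the other full blooming libraries there by 2 log2 units or more. In it the median member stood at 47.1% of its bud mean in full blooming replicate 3, against 1.99% and 0.537% in replicates 1 and 2. In partial blooming its values were 1.60%, 10.6% and 18.3% for replicates 1, 2 and 3, and in 81 of the 88 both replicates 2 and 3 lay above replicate 1. In early senescence this set was the emptiest, with medians of 0.239%, 0.324% and 0.394% of the bud mean, and early senescence was the lowest middle stage in 82 of the 88. Its members had a median stage mean of 60.3 FPKM in buds. The cut is on log2(FPKM + 1), where genes of low level cannot differ by much, so it favours abundant members by itself. The median of late senescence minus buds was -0.65 log2 units in this set, while 25 of the 88 were higher in late senescence than in buds.

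The smallest difference, under 1 log2 unit, was found in 32 members. This set did not follow the ladder. The median member was at 7.54%, 19.7% and 5.64% of its bud mean in full blooming replicates 1, 2 and 3, and at 19.4%, 17.6% and 6.69% in early senescence. Its median stage mean was 12.8 FPKM in buds and 14.9 in late senescence, and its median late senescence minus buds was 0.41 log2 units. Another library stood out in it. Bud replicate 2 was the highest bud library in 25 of the 32, with a median of 159% of the bud mean, against 72.2% and 82.7% in bud replicates 1 and 3. In the 88 members of the first set, bud replicate 2 was the highest in 36, with a median of 107%. The 30 members with differences from 1 to 2 log2 units lay between in only some of these values. Bud replicate 2 was the highest bud library in 18 of them, with a median of 133% of the bud mean, and late senescence minus buds was at 0.05. In full blooming replicate 3 their median member was at 47.7% of its bud mean, much as in the first set. In partial blooming replicates 1, 2 and 3 it was at 11.2%, 16.5% and 23.8%, above both other sets.

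**Figure D3:**
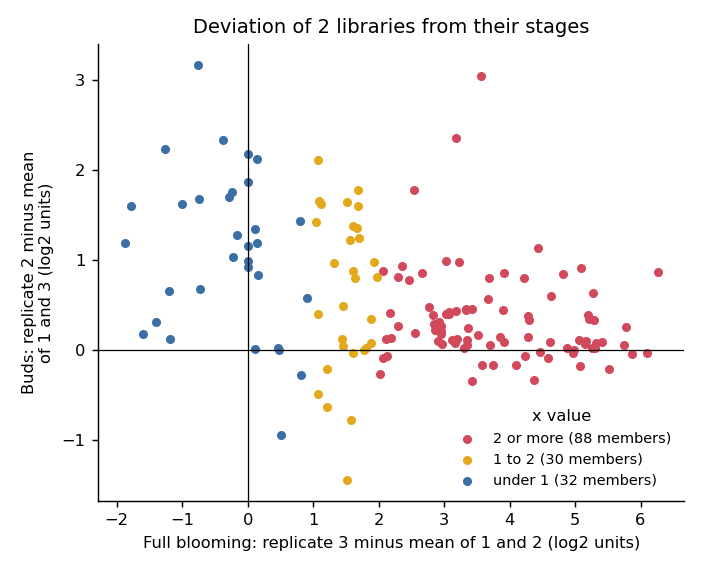
Each point is a member; the x axis gives full blooming replicate 3 minus the mean of replicates 1 and 2, and the y axis bud replicate 2 minus the mean of replicates 1 and 3, both in log2(FPKM + 1) units. Most points far to the right lie near 0 on the y axis, while most of the 32 members under 1 on the x axis lie above 0 on the y axis.

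Over all members, bud replicate 2 had the highest bud level in 79 (52.7%), against 40.8% of the eligible genes. It exceeded the mean of the other buds by at least 1 log2 unit in 33 members (22.0%), against 4.99% of all tested genes. Those tested genes include many under the levels of the rule. The part of bud replicate 2 in the choice of members was not tested, but the choice was repeated without it. Of the 150 members, 125 were taken again without bud replicate 2, 140 without full blooming replicate 3, and 124 without both. In late senescence, replicate 2 was the lowest library in 104 members (69.3%), against 54.9% of the eligible genes, and replicate 1 the highest in 94 (62.7%), against 35.6%.

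The outer and middle stages overlapped in most members. All 6 bud and late senescence libraries lay above all 9 middle libraries in 50 members (33.3%), against 1.30% of all tested genes, a contrast the rule used. Without full blooming replicate 3 it was 94 members, against 3.37% of all tested genes, and without bud replicate 2 it was 50, against 1.46%. At the 2 steps that the rule fixed, the median log2 difference of members was -2.74 for partial blooming minus buds and 3.26 for late minus early senescence, against -0.13 and 0.19 over all tested genes.

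Whether the members came back to their bud level was compared next. The rule took the lower of the 2 stages and not their difference. It did require both stages to be high, and only bud libraries had a minimum per library. The choice thus limits which differences can occur, while the shares over all tested genes come from genes without that choice. Late senescence was called higher than buds in 6 members (4.00%), against 22.0% of all tested genes, and lower in 7 members (4.67%), against 20.4% (limma on log2(FPKM + 1), adjusted p under 0.05 over all tested genes). The other 137 members were not called, and 30 members had an unadjusted p under 0.05. The median difference was -0.17 log2 units over the members and -0.03 over all tested genes, and single members ran from -3.19 to 3.48. A difference of at least 1 log2 unit was seen in 18 members towards late senescence and in 36 towards buds. For these counts and that of unadjusted p-values, the share of all tested genes was not computed. The members had a wide spread within stages, with a median residual SD of 1.01 log2 units, against 0.30 over all tested genes, and the test uses the spread of all 5 stages. With only the 6 libraries of late senescence and buds in the fit, 11 members were higher (18.6% of all tested genes were) and 37 lower (17.5% were). So the low number of calls does not show that levels were alike.

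Counted without a model, all 3 late senescence libraries lay above all 3 bud libraries in 21 members (14%), against 25.4% of all tested genes. They lay below all 3 bud libraries in 39 members (26.0%), which is close to the 25.7% of all tested genes. The number called lower changed with single libraries. It was 33 without full blooming replicate 3 (23.9% of all tested genes) and 15 without full blooming replicate 2 (20.6%). It was 4 without bud replicate 1 (15.9%), 1 without bud replicate 2 (17.6%) and 1 without bud replicate 3 (19.3%). With replicate 2 or 3 of late senescence left out it was 0 (17.2%) or 2 (18.7%). The number called higher was 3 without bud replicate 3 (19.0%).

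**Figure D4:**
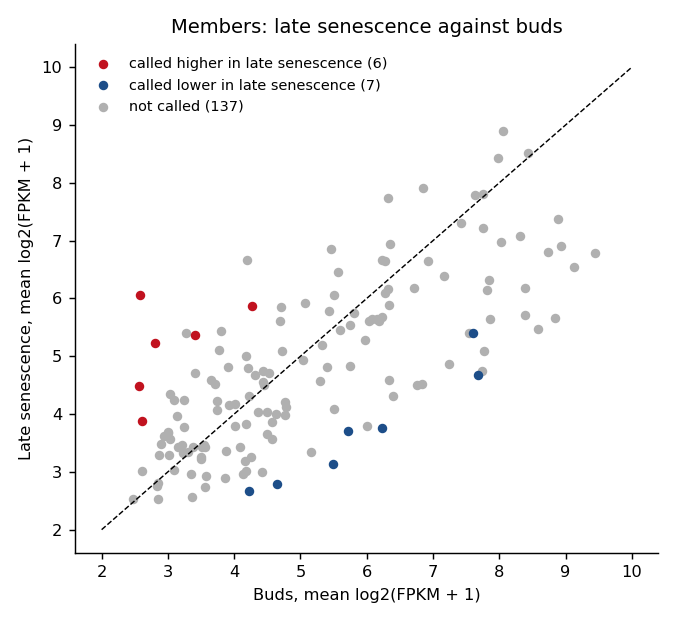
Mean log2(FPKM + 1) of each member in late senescence (y axis) and in buds (x axis), with the line of equal levels dashed. The 6 members called higher in late senescence lie above the line at bud means of 5.03 to 25.8 FPKM, and the 7 called lower lie under it.

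Of the members called higher in late senescence, F01.PB5194 had the largest difference. It was at 69.4, 65.7 and 61.2 FPKM in late senescence, against 5.70, 5.73 and 3.67 in buds. The 2 stages did not overlap, and in the middle stages only full blooming replicate 3, at 3.91 FPKM, was above 1 FPKM. The log2 difference was 3.48 ± 0.49 (SE; limma adjusted p of 8.3e-05). F01.PB1738 was at 38.8, 43.8 and 38.9 FPKM in late senescence, against 8.64, 28.1 and 3.25 in buds. Bud replicate 2 was the highest of its buds, and it is listed at 0 in all libraries between. Its log2 difference was 1.97 ± 0.46 (SE; limma adjusted p of 0.00418), and 2.69 without bud replicate 2. Tested against a minimum change of 1 log2 unit, F01.PB5194 kept its call (adjusted p of 0.00205) and F01.PB1738 did not (0.22).

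Of the members called lower, F01.PB10 and F01.PB9758 differed most. F01.PB10 was at 34.9, 18.3 and 23.01 FPKM in late senescence, against 181, 201 and 231 in buds. Its late level was under that of full blooming replicate 3, at 58.6 FPKM, while its early senescence values were 0.920, 0.680 and 0.380. The log2 difference from buds was -3.00 ± 0.93 (SE; limma adjusted p of 0.0203). F01.PB9758, the member of rank 150, was at 19.6, 8.70 and 11.5 FPKM in late senescence, against 65.3, 68.3 and 90.7 in buds, a log2 difference of -2.47 ± 0.81 (SE; limma adjusted p of 0.027). No library of the 2 stages overlapped in either gene. Both calls were lost without bud replicate 3 (adjusted p of 0.0524 and 0.0713), late senescence replicate 2 (0.062 and 0.0838) or late senescence replicate 3 (0.0505 and 0.0649). That of F01.PB9758 was also lost without bud replicate 1 (0.0544) or 2 (0.0522) and with a pseudocount of 0.1 (0.147), and neither gene passed against a minimum change of 1 log2 unit (0.205 and 0.331). F01.PB10 and F01.PB9758 correlated at 0.997 with each other over the 15 libraries.

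Within the low phase, few members were called between full and partial blooming with all libraries weighted equally. The rule took the highest of the 3 middle stages and not their differences, but each had to lie below both outer stages. The choice thus limits which differences can occur, while the shares over all tested genes come from genes without it. The median SE was 0.73 log2 units over the members, against 0.24 over all tested genes. Few calls therefore do not show that levels were alike. In full blooming 1 member was higher (0.667%, against 0.980% of all tested genes) and 1 was lower (0.667%, against 0.699%). An unadjusted limma p under 0.05 was seen in 8 members, and the share of all tested genes was not computed. The median difference was -0.04 log2 units over the members and -0.03 over all tested genes. Without full blooming replicate 3, 1 member was higher (2.35% of all tested genes) and 19 were lower (3.66%), and the median of members was -0.98, against -0.12 over all tested genes. With library quality weights 2 were higher (5.49% of all tested genes) and 39 lower (9.5%). The higher number was 2 without bud replicate 3 (1.09%). It was 0 without any one of partial blooming replicates 1, 2 and 3 and full blooming replicates 1 and 2 (0.401% to 0.678% of all tested genes). The lower number was 0 without partial blooming replicate 1 or 3 or full blooming replicate 1 (0.275% to 0.385%).

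Both called members belonged to the set that did not follow the ladder. That set was cut on the same full blooming libraries that this test uses, so their place in it is a description only. F01.PB984 was at 4.94, 7.17 and 1.63 FPKM in full blooming, against 47.1, 37.8 and 58.5 in partial blooming, with no overlap. Its log2 difference was -3.26 ± 0.61 (SE; limma adjusted p of 0.0158). The call was lost without partial blooming replicate 1 (adjusted p of 0.0663), partial blooming replicate 3 (0.0748) or full blooming replicate 1 (0.0506), and with only the 6 libraries compared (0.0771). F01.PB984 was the most abundant member in late senescence, at 405, 419 and 626 FPKM, and was at 171, 306 and 358 in buds. F01.PB32968 was at 5.47, 5.94 and 4.18 FPKM in full blooming and is listed at 0 in all 3 partial blooming libraries, so no fold is given (limma adjusted p of 0.014). Its call was lost without any single partial blooming library or full blooming replicate 1 or 2, with adjusted p from 0.0513 to 0.0734. Against a minimum change of 1 log2 unit neither F01.PB984 (0.637) nor F01.PB32968 (0.918) passed. It was at 57.1, 67.2 and 50.1 FPKM in late senescence, against 7.65, 56.0 and 13.7 in buds, where replicate 2 again stood above the others.

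At the onset of senescence, 4 members were lower in early senescence than in full blooming (2.67%, against 6.85% of all tested genes) and 1 was higher (0.667%, against 8.78%). The choice of members limits these differences too, and the median SE was again 0.73 log2 units over the members, against 0.24. The median difference was -0.87 log2 units over the members, against -0.08 over all tested genes. In 72 members it was -1 or less, a count without a share over all tested genes. All 3 early senescence libraries lay below all 3 of full blooming in 27 members (18%, against 16.9% of all tested genes) and above them in 2 (1.33%, against 15.5%). The step was smaller without full blooming replicate 3, where the median of members was -0.10 log2 units, against 0.02 over all tested genes, with 3 members lower (6.11% of all tested genes) and 4 higher (8.57%). Without full blooming replicate 2, 19 members were lower (6.17%), and without early senescence replicate 3, 2 were higher (7.91%).

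The member called higher in early senescence was again from the set of 32, which was cut on the full blooming libraries tested here. F01.PB984 was at 59.7, 132 and 15.7 FPKM in early senescence, against 4.94, 7.17 and 1.63 in full blooming, a log2 difference of 3.35 ± 0.61 (SE; limma adjusted p of 0.00192). Its early senescence libraries differed widely but all lay above full blooming, and the call was lost with only the 6 libraries compared (adjusted p of 0.0566). F01.PB33614 was at 0.310, 0 and 0 FPKM in early senescence, against 22.98, 23.5 and 50.4 in full blooming. Its log2 difference was -4.83 ± 0.54 (SE; limma adjusted p of 4.86e-05), a size that depends on the pseudocount and was -7.56 with a pseudocount of 0.1. It was at 176, 83.1 and 133 FPKM in late senescence, against 134, 560 and 235 in buds. F01.PB5278 is listed at 0 in all 3 early senescence libraries and was at 5.22, 16.2 and 31.1 FPKM in full blooming, so no fold is given (limma adjusted p of 0.012, 0.0597 without both bud replicate 2 and full blooming replicate 3, and 0.16 against a minimum change of 1 log2 unit). It was at 81.8, 58.8 and 59.3 FPKM in late senescence, against 18.7, 64.9 and 71.3 in buds, so its late and bud libraries overlapped.

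**Figure D5:**
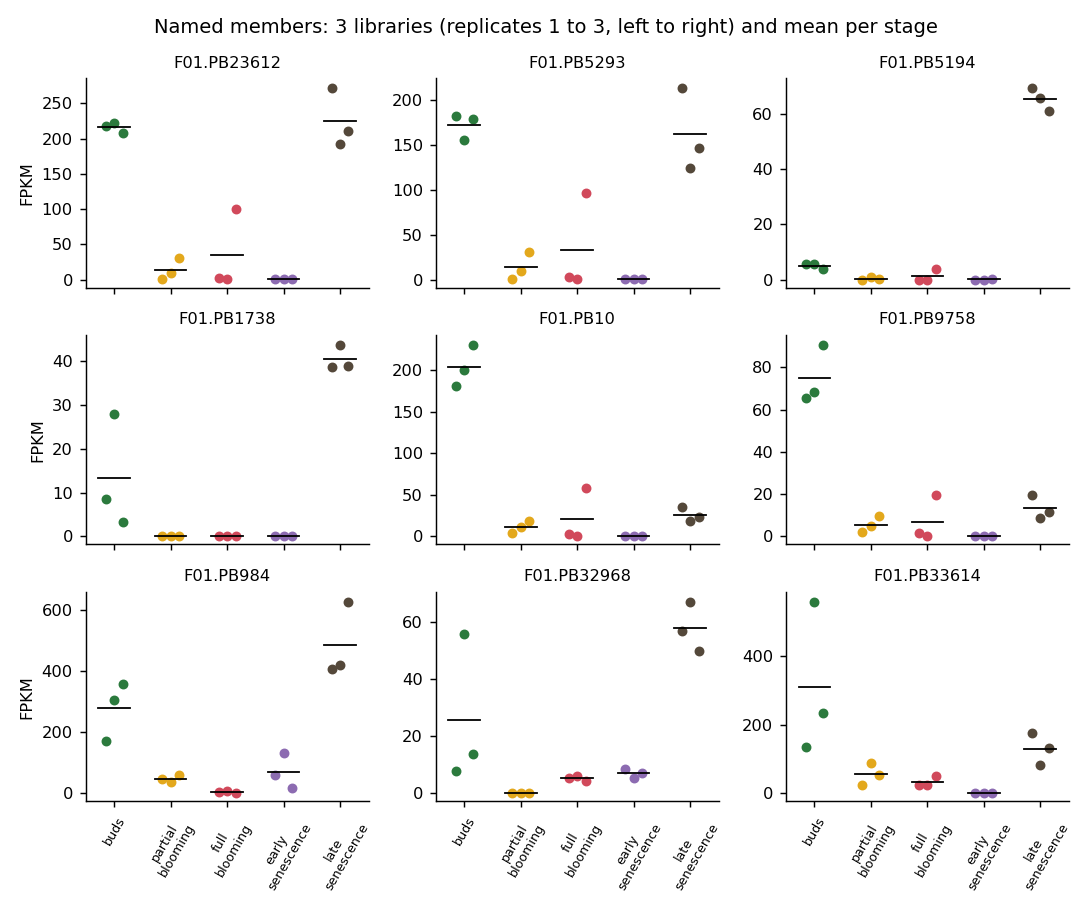
FPKM of 9 named members in each library (points, replicates 1 to 3 from left to right) with the stage mean (line); the y axes differ and start at 0. The courses differ in the return, from F01.PB5194, higher in late senescence, to F01.PB10, lower there than in buds, and in the single high point of full blooming replicate 3 in F01.PB23612 and F01.PB5293.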

How the data were processed

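The authors deposited 1 table of FPKM values, written to 2 decimals, with 1 column per library; the unit comes from the table's name and values. The submitters' processing notes name HTSeq 0.6.1, DESeq 1.18.0, TopHat2 2.0.12 and Bowtie2 2.2.3 without a role for any of them. A reference or annotation is not given in the sources used here, and sequencing depth is unknown, so no counting interval is given. Summed FPKM was 861035 to 1094997 per library.

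Members were chosen by the rule in the text. The members, tests and lists were chosen with earlier results of these data known. Tests used limma 3.58.1 (R 4.3.3) with a trended prior variance on log2(FPKM + 1), with all 15 libraries and 47326 genes at 1 FPKM or more in at least 3 libraries, two-sided, with Benjamini-Hochberg adjustment over all of them and a threshold of 0.05. Fold changes on this scale are understated for low genes. The method was checked on simulated data with independent noise and with changed genes drawn at random. That simulation held no library that stands apart, as full blooming replicate 3 does for the members. Named genes were the 2 highest scores, those beside the threshold and, per contrast, up to 2 rises and 2 falls among called members whose libraries did not overlap. Alternatives were other pseudocounts, filters, scalings and fits, a replicate block, and leaving out each library.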

Additional observations from a re-analysis of the deposited data

How the results depend on the processing

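Leaving out bud replicate 2 and full blooming replicate 3 together was chosen after the data were seen. Of 177 counts recomputed, 130 stayed within 1.5 times and 47 moved. Of 234 values of named members, 208 kept their call, 26 lost it and 0 changed direction. Except where stated, the causes were not tested.

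For late senescence against buds, members called higher and lower numbered 3 and 1 with a pseudocount of 0.1, 11 and 37 with only the 6 libraries compared, 11 and 28 without both libraries named above, and 1 and 0 with a minimum change of 1 log2 unit, which passes fewer genes by construction. The lower members numbered 13 with quantile normalization and 20 with library quality weights. Leaving out libraries gave 3 to 11 higher and 0 to 33 lower.

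For full against partial blooming, 3 were higher with a pseudocount of 0.1, 2 higher and 39 lower with quality weights, 0 lower with only 6 libraries, 0 and 0 with a minimum change, and 16 lower without both libraries. Leaving out libraries gave 0 to 2 higher and 0 to 19 lower.

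For early senescence against full blooming, 2 were higher and 11 lower with a pseudocount of 0.1, 0 higher with only 6 libraries, 6 higher with quality weights, 1 lower with a minimum change, and 4 higher and 2 lower without both libraries. Leaving out libraries gave 1 to 4 higher and 2 to 19 lower.

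The labels do not say whether a replicate number marks a shared plant or day. Deviations of same-numbered libraries from their stage means correlated between -0.04 and 0.02 for late senescence and buds. For full and partial blooming they correlated between -0.07 and 0.37, and for early senescence and full blooming between -0.03 and 0.05. With 3 libraries per stage, these values do not settle whether the numbers pair the libraries. With a replicate block, 12 members were lower in late senescence than in buds, and no other count moved past 1.5 times.

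Chosen again, 112 to 146 of the 150 members were taken with libraries left out. With a score from the lowest outer and highest middle library, 36 were taken.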
